A study of Mus musculus with 4 samples.

Results

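The 9 genes described here encode enzymes of the stretch of cholesterol synthesis that runs from acetyl-CoA through mevalonate to squalene epoxide: Acat2, Hmgcs1, Mvk, Pmvk, Mvd, Idi1, Fdps, Fdft1 and Sqle. They were chosen by gene symbol, and 12 of the 14236 listed RefSeq transcripts, summed to 9 of 11258 genes, belonged to them. Polyadenylated RNA had been sequenced from cultured sensory neurons of mouse dorsal root ganglia (DRG), dissociated at embryonic day 13.5 and grown with nerve growth factor, fluorodeoxyuridine and uridine, the last pair acting against dividing cells. The PROM1 group was 2 libraries from cultures given lentivirus for overexpression of human PROM1 (CD133), a cholesterol-binding membrane protein of cell protrusions, and the control group was 2 libraries from cultures given control pLKO lentivirus. Virus was added on day 2 in vitro in both groups. The labels also describe re-plating at day 5 but do not say whether these libraries came from re-plated cells. The sources used here do not give the strain, the promoter driving PROM1 or the share of cells that took up virus. The series text calls the duplicates biological but does not say that they came from separate cultures, so p-values measure the spread between these libraries. Human PROM1 was not analysed here, so the labels were not checked on the transgene.

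The mevalonate pathway builds isoprenoid units from acetyl-CoA and joins them into farnesyl diphosphate, from which squalene and the sterol ring are made, and from which other branches lead to prenylated proteins, dolichol and ubiquinone. Its genes are classical targets of the sterol regulatory element-binding proteins (SREBPs), transcription factors that are held in the endoplasmic reticulum when sterols are plentiful and released when sterols are scarce. In peripheral nerve, Schwann cells make much of the cholesterol of myelin, and neurons need sterols for growing membrane.

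The libraries served as the 4 points of every comparison, and depth is unknown because FPKM values, fragment counts normalised for transcript length and library total, carry no read counts. All 12 sensory neuron markers were in the table and tested. Their summed level was 4529 and 5256 FPKM in the PROM1 libraries and 4972 and 5439 FPKM in the control libraries, with 6 markers lower and 6 higher in PROM1 cultures. The lowest library value was 1607 FPKM for the neuronal ubiquitin hydrolase gene Uchl1 and 894 FPKM for the intermediate filament gene Prph, so markers of the labelled cell type were abundant in every library.

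Sequence upstream of the genes is shown first, because the pathway has a known class of regulatory element. RefSeq promoter windows of build GRCm38.p6 were found for 6 of the 9 genes, as 7 windows, and the 250 bases before each start were searched on both strands for CACNCCAC (the core of a sterol regulatory element), CCAAT (the box bound by NF-Y) and GGGCGG (the box bound by Sp1). Printed are the windows of Hmgcs1, which held all of these motifs, and of Mvd and Idi1, which had the lowest log2 differences of the 9. Of the Pmvk windows, the one with a motif match is printed, and which listed transcript begins there was not tested. Capitals mark the motif matches on either strand, none of which shared a base with another.
Hmgcs1 promoter, chr13:119690101-119690350, plus strand: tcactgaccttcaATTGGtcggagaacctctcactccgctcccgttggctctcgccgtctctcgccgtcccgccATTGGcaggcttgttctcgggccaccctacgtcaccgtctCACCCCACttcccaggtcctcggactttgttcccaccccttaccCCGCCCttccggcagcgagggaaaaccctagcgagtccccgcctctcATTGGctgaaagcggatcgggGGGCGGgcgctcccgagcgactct
Mvd promoter, chr8:122443423-122443672, minus strand: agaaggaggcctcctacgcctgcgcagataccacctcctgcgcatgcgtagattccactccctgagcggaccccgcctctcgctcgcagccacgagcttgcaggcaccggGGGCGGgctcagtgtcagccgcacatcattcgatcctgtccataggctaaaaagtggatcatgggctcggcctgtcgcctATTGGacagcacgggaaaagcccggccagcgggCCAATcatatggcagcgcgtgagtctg
Idi1 promoter, chr13:8885356-8885605, plus strand: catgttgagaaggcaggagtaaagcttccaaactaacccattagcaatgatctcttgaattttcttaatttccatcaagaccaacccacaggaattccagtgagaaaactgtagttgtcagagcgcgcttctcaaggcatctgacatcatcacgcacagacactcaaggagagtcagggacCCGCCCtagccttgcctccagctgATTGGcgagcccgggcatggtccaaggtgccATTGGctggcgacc
Pmvk promoter, chr3:89454291-89454540, plus strand: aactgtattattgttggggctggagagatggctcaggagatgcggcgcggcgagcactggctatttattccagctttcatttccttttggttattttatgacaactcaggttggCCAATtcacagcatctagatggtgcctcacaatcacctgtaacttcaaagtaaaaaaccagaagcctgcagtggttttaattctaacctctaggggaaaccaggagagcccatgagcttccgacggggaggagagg

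The Hmgcs1 window carried CACCCCAC from base -136 to -129, counted from the base before the start as -1. It also held 3 CCAAT boxes and 2 GGGCGG boxes. The bases just after its start were not found in GENCODE M21 transcripts of Hmgcs1, so these positions rest on the RefSeq start alone. For the other windows such bases were found in a transcript of the gene. The Acat2 window held 2 matches to CACNCCAC and no CCAAT box, and the Mvk window held 5 CCAAT boxes. The Mvd window held 2 CCAAT boxes and 1 GGGCGG box, as did that of Idi1, and the printed Pmvk window held 1 CCAAT box alone. CACNCCAC was found in 2 of the 7 windows, against 5.29% of all 32851 promoter windows of that length. Those were the windows of Acat2 and Hmgcs1, and the windows of Mvd and Idi1 held no match to it. CCAAT was found in 5 of 7, against 33.85%, and GGGCGG in 5 of 7, against 32.74%. Counted by gene, these were 2, 5 and 5 of the 6 genes. Among the 10019 windows of tested genes the shares were 5.44% for CACNCCAC, 34.52% for CCAAT and 59.4% for GGGCGG. These matches describe letters in a window and were not tested against the expression values.

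Of the 9 enzymes, 8 had lower means in PROM1 cultures than in control cultures, and for all 8 the PROM1 libraries were both below the lower control library. That separation held for 17.5% of the 10108 tested genes, which were those averaging 1 FPKM or more. All 9 enzymes passed that filter and none was listed at 0 in any library. At least 1.5-fold lower on the log2(FPKM + 1) scale were 7 of the 9 enzymes, against 7.78% of tested genes. The median log2 difference of the 9 was -1.01, beside -0.03 for all tested genes. After adjustment over all tested genes with limma (Benjamini-Hochberg), 0 of the 9 passed 0.05, against 0.0198% of tested genes called lower, and 7 of the 9 had an unadjusted p under 0.05 with a negative difference, against 2.36%, while 0 had one with a positive difference, against 2.33%. The unadjusted p of these 7 ran from 0.00315 for Mvd to 0.0189 for Acat2, and their adjusted p was 0.939. With 2 libraries a group no exact two-sided permutation test can give a p under 0.333. The genes were chosen with earlier results of these data known, so their shared direction is a description.

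**Figure D1:**
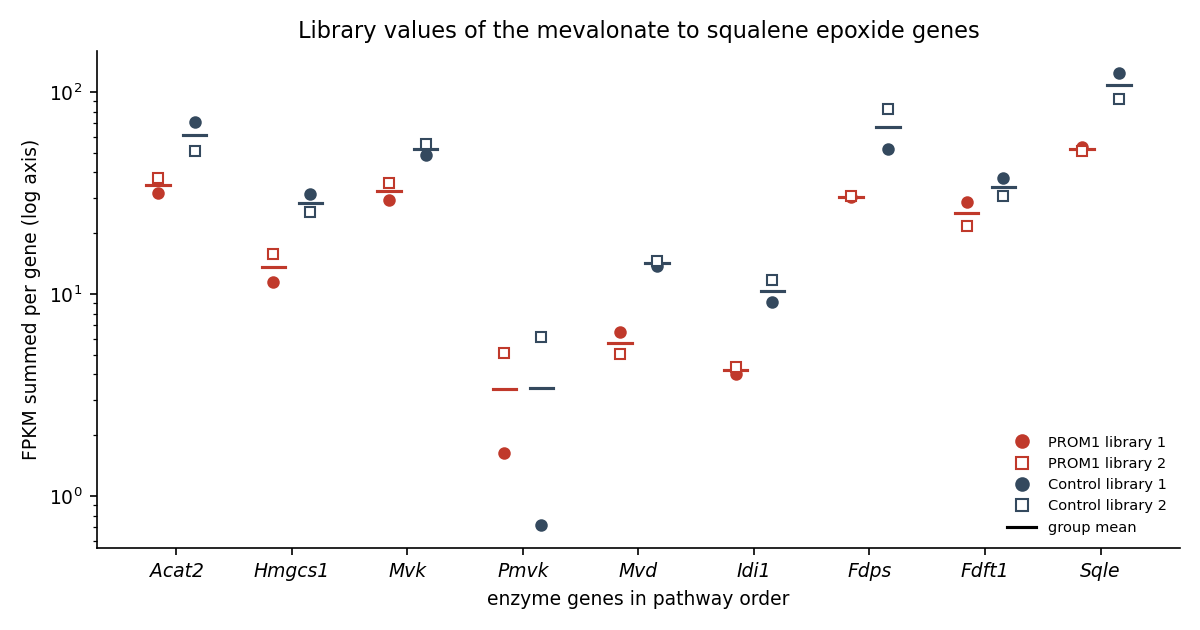
FPKM of each enzyme gene, summed over its listed transcripts, on a log axis, with the genes in pathway order; filled circles are libraries numbered 1, open squares libraries numbered 2, red PROM1, dark blue control, and the bar is the group mean. For every gene but Pmvk both PROM1 libraries lie below both control libraries, with Sqle at the top (52.3 against 108.1 FPKM on average).

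Both listed genes of the entry into the pathway were lower in PROM1 cultures. Other genes of this stretch are not reported here. Acat2, the cytosolic thiolase that joins acetyl-CoA units, had 31.7 and 37.6 FPKM in the PROM1 libraries and 70.8 and 51.0 FPKM in the control libraries. Its groups did not overlap, and its log2 difference was -0.78 ± 0.24 (SE). Hmgcs1, the synthase that makes HMG-CoA in the cytosol and whose promoter opens the sequences above, had 11.5 and 15.7 FPKM in the PROM1 libraries and 31.1 and 25.4 FPKM in the control libraries. These means differed 2.08-fold, with a log2 difference of -1.01 ± 0.25 (SE). Both genes were furthest apart between the libraries numbered 1, at -1.14 for Acat2 and -1.36 for Hmgcs1. Between the libraries numbered 2 they were closer, at -0.43 and -0.66. The labels do not show that libraries of the same number are pairs, so another matching would give other differences. Only 1 transcript was listed for each.

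The enzymes that phosphorylate and decarboxylate mevalonate did not all lie in one direction. Mvk, the mevalonate kinase, had 29.2 and 35.2 FPKM in the PROM1 libraries and 48.6 and 55.3 FPKM in the control libraries. Its log2 difference was -0.68 ± 0.20 (SE), with -0.72 between libraries numbered 1 and -0.63 between libraries numbered 2, which are not shown to be pairs. Mvd, which decarboxylates mevalonate diphosphate to isopentenyl diphosphate, had 6.47 and 5.03 FPKM in the PROM1 libraries and 13.8 and 14.6 FPKM in the control libraries. With a log2 difference of -1.18 ± 0.23 (SE), Mvd had the lowest value of the 9 enzymes and ranked 135 from the lowest among the 10108 tested genes. Idi1, the isomerase that turns isopentenyl into dimethylallyl diphosphate, followed at rank 152, with 4.01 and 4.37 FPKM in the PROM1 libraries and 9.10 and 11.7 FPKM in the control libraries. Its log2 difference was -1.13 ± 0.25 (SE), and for both Mvd and Idi1 the spread within each group was smaller than the gap between the groups.

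Pmvk, the phosphomevalonate kinase that acts between Mvk and Mvd, was the exception. It had 1.64 and 5.14 FPKM in the PROM1 libraries and 0.718 and 6.14 FPKM in the control libraries, so the control libraries spanned both PROM1 libraries. Its log2 difference of 0.20 ± 0.77 (SE) had no stable sign: it was -0.83 without control library 1 and -0.41 without PROM1 library 2. Pmvk also had the lowest level of the 9, above 30.0% of tested genes, where Sqle stood above 93.3%.

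From isopentenyl units onward the pattern was again lower in PROM1 cultures. Fdps, the synthase that makes farnesyl diphosphate, had 30.2 and 30.5 FPKM in the PROM1 libraries and 52.1 and 82.2 FPKM in the control libraries. The PROM1 libraries nearly coincided while the control libraries lay far apart, and the log2 difference was -1.08 ± 0.26 (SE). Fdft1, the squalene synthase and the first enzyme committed to sterols, had 28.6 and 21.8 FPKM in the PROM1 libraries and 37.5 and 30.5 FPKM in the control libraries. Its groups did not overlap, but the gap between the nearest libraries was smaller than the spread within either group. Its log2 difference of -0.42 ± 0.23 (SE) had an unadjusted limma p of 0.126 and ranged from -0.23, when PROM1 library 2 was left out, to -0.61, when PROM1 library 1 was left out. Sqle, the squalene epoxidase that carries out the first oxygenation on the way to the sterol ring, had 53.5 and 51.1 FPKM in the PROM1 libraries and 123.6 and 92.6 FPKM in the control libraries, a log2 difference of -1.02 ± 0.21 (SE).

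**Figure D2:**
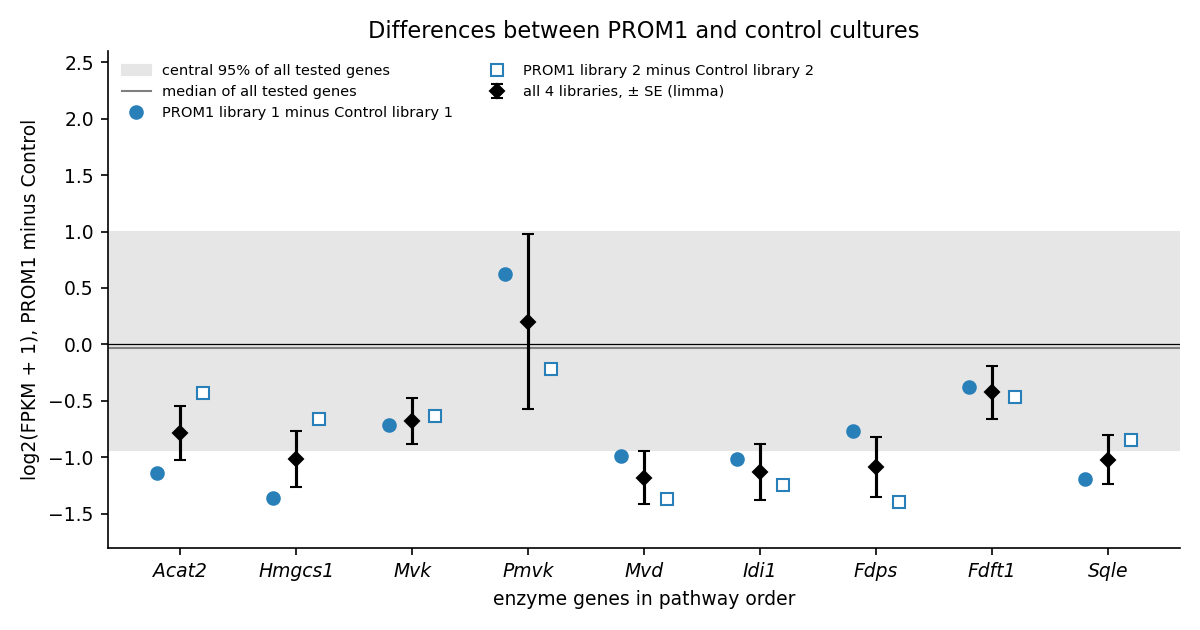
Difference on the log2(FPKM + 1) scale, PROM1 minus control, for each enzyme gene in pathway order; diamonds with bars are the limma estimate ± SE from all 4 libraries, blue symbols the difference between libraries of the same number, and the grey band the central 95% of all tested genes, from -0.93 to 0.99. Hmgcs1, Mvd, Idi1, Fdps and Sqle lie below the band, while Pmvk lies within it at 0.20 with a wide error. Libraries of the same number are not shown to be pairs.

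The authors' deposited table, which compares 1 FPKM per group and transcript, gave the same direction for the 8 enzymes other than Pmvk. Sqle fell by its q of 0.0395 in the authors' deposited table, at 68.9 FPKM in the PROM1 group against 136.1 FPKM in the control group. Each of these group values lies above both library values of its group. The deposited group values are thus not plain means of the library values, and how they were scaled is not stated. A q under 0.05 with a lower PROM1 value was given to 0.0632% of the 14236 transcripts in the authors' deposited table. There, 7 of the 12 transcripts of the enzymes had a p under 0.05 with a lower PROM1 value, against 2.58% of all transcripts in the authors' deposited table. Leaving Pmvk aside, the q-values of the main transcripts of the other enzymes ran from 0.251 for Fdps to 0.865 for Mvk and Fdft1 in the authors' deposited table. Mvd had 6.32 against 17.4 FPKM, the lowest log2 ratio of these main transcripts without Pmvk in the authors' deposited table at -1.44, with a p of 0.0008 and a q of 0.308. The Pmvk transcripts NM_001310640 and NM_026784 had log2 ratios of 4.89 and -5.50 in the authors' deposited table, each with a q of 0.865.

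The order of the levels, compared per length in FPKM, was led by Sqle in both groups and ended with Mvd, Idi1 and Pmvk. In PROM1 cultures the means were 52.3 ± 1.72 FPKM for Sqle, 34.6 ± 4.15 for Acat2, 32.2 ± 4.28 for Mvk, 30.4 ± 0.252 for Fdps and 25.2 ± 4.84 for Fdft1 (SD, n = 2). There the library values of Mvk overlapped those of Acat2 and those of Fdps, so Mvk did not differ from either neighbour beyond the spread, while both Acat2 values lay above both Fdps values. In control cultures the means were 108.1 ± 21.9 FPKM for Sqle, 67.1 ± 21.2 for Fdps, 60.9 ± 14.0 for Acat2, 51.9 ± 4.74 for Mvk and 34.0 ± 4.99 for Fdft1 (SD, n = 2), and Fdps, Acat2 and Mvk again overlapped. Hmgcs1 stood sixth in both groups, with library values that overlapped those of Fdft1 in control cultures and lay below them in PROM1 cultures. Idi1 lay above Pmvk in both control libraries and overlapped it in the PROM1 libraries.

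Ratios between enzymes within a library show how evenly the levels differed. The ratio of Mvd to Idi1 was 1.61 and 1.15 in the PROM1 libraries and 1.52 and 1.25 in the control libraries, so this neighbouring pair kept overlapping ratios. The ratio of Sqle to Fdps also overlapped, at 1.77 and 1.67 in the PROM1 libraries and 2.37 and 1.13 in the control libraries. Fdft1 stood higher relative to Sqle in PROM1 cultures, with ratios of 0.534 and 0.426 in the PROM1 libraries and 0.303 and 0.329 in the control libraries. Mvd stood lower relative to Mvk, with ratios of 0.222 and 0.143 in the PROM1 libraries and 0.285 and 0.264 in the control libraries. Acat2 stood higher relative to Hmgcs1, with ratios of 2.75 and 2.39 in the PROM1 libraries and 2.27 and 2.00 in the control libraries. Hmgcs1 and Idi1 each stood lower relative to Mvk in both PROM1 libraries than in either control library. The ratios of Idi1 to Fdps and of Fdps to Fdft1 overlapped. Sqle with Fdps, Mvd with Mvk and Idi1 with Mvk are not neighbours in the list, and no ratio was among the planned comparisons. None of these separations can reach 0.05 with 2 libraries a group, where the smallest exact permutation p is 0.333. How often ratios of other gene pairs separate in this way was not computed, so the ratios are a description.

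**Figure D3:**
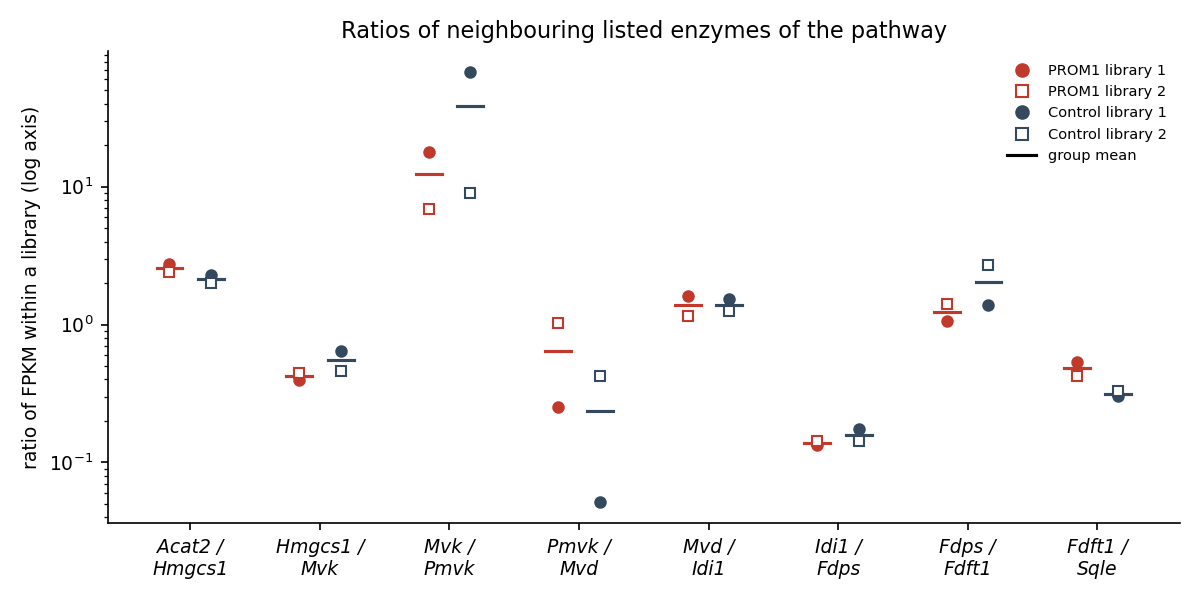
Ratio of FPKM between neighbouring enzymes of the list within each library, on a log axis; filled circles are libraries numbered 1, open squares libraries numbered 2, red PROM1, dark blue control, and the bar is the group mean. The ratios with Pmvk spread widely, and those of Mvd to Idi1 overlap near 1.38. Fdft1 to Sqle and Acat2 to Hmgcs1 are higher in both PROM1 libraries, and Hmgcs1 to Mvk is lower in both.

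Pmvk, Mvk and Fdps each had 2 listed transcripts, and the level of Pmvk was assigned to a different one in each group. The Pmvk transcript NM_001310640 had 1.64 and 5.14 FPKM in the PROM1 libraries and under 0.0001 FPKM in both control libraries, while NM_026784 had under 0.0001 FPKM in both PROM1 libraries and 0.718 and 6.14 FPKM in the control libraries. Each transcript alone thus separated the groups, in opposite directions, although the gene total did not. In the fit per transcript the log2 differences were 2.01 ± 0.61 for NM_001310640 and -1.81 ± 0.86 for NM_026784 (SE), both with a limma adjusted p of 0.923, and these sizes depend on the pseudocount, being 4.92 and -4.50 with 0.1 in place of 1. In that fit 0 of 12288 transcripts passed that test, with 517 (4.21%) at an unadjusted p under 0.05. Each Pmvk transcript passed the filter of a mean of 1 FPKM only through the group where it was high. Its fitted difference therefore adds no support to the separation of the library values. NM_001310640 fell below that filter without PROM1 library 2, as did NM_026784 without control library 2. In the GENCODE M21 annotation the Pmvk transcripts share 779 bases of exon on chromosome 3. This is 79.7% of the 978 bases of NM_001310640 and 65.2% of the 1194 bases of NM_026784. They have 4 and 5 exons, and which exons differ was not tested. Such mirrored transcripts were common: of 1680 genes with at least 2 transcripts at a mean of 1 FPKM or more, 14.8% had 1 transcript with both PROM1 libraries below and another with both above the control libraries. How the authors' estimates divided the reads of shared exons was not tested.

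The other second transcripts were minor. Mvk NM_001306205 reached 3.76 FPKM, 7.75% of the gene, in control library 1 and was under 0.001 FPKM in the other libraries. Fdps NM_001253751 reached 1.82 FPKM, 2.21% of the gene, in control library 2 and was under 0.0001 FPKM elsewhere. The main transcripts NM_023556 of Mvk and NM_134469 of Fdps alone had log2 differences of -0.62 ± 0.22 and -1.07 ± 0.27 (SE), close to those of the gene totals.

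**Figure D4:**
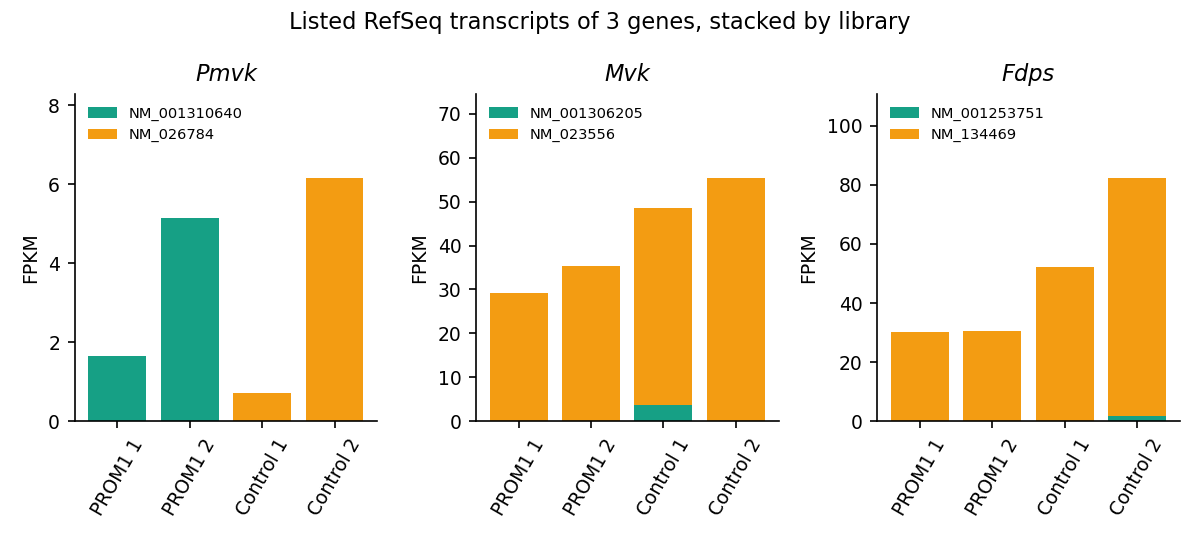
FPKM of the listed RefSeq transcripts of Pmvk, Mvk and Fdps, stacked for each library from 0, with PROM1 libraries left and control libraries right. The Pmvk bar is 1 transcript in the PROM1 libraries and the other in the control libraries, whereas in Mvk and Fdps a second transcript shows in 1 control library only.

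Some enzymes have copies or overlapping genes that could share reads of 50 bases. Of the stretches of 50 bases in their GENCODE M21 transcripts, 45.9% for Acat2 recur in Acat3, 21.3% for Idi1 in transcripts of 4 other genes, 82.0% for the main Fdps transcript in those of 8 others and 10.9% for Fdft1 in 1 other, while Hmgcs1, Mvk, Pmvk, Mvd and Sqle share none. How such reads were counted is not stated, so the values of Acat2, Idi1, Fdps and Fdft1 are uncertain in that respect. Acat3 had 12.1 and 16.3 FPKM in the PROM1 libraries and 15.4 and 20.7 FPKM in the control libraries. Exons of Fdps overlap those of the protein-coding gene Gm43738 on the same strand over 1124 of 4208 bases. Exons of Hmgcs1 overlap those of the antisense gene Gm48342 over 557 of 4594 bases, and those of Idi1 overlap Gm48574 on the opposite strand over 323 of 3505 bases. Exons of Fdft1 also overlap those of the cathepsin gene Ctsb on the opposite strand over 774 of 4227 bases. Ctsb had 30.4 and 23.5 FPKM in the PROM1 libraries and 24.6 and 23.1 FPKM in the control libraries, and whether counting used strand is not stated.

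The enzymes that take squalene epoxide on to cholesterol also had lower levels in PROM1 cultures. All 9 listed sterol ring enzymes were tested and had negative log2 differences, 6 of them without overlap between the groups, against 17.5% of tested genes. Their median log2 difference was -0.75, limma called 0 over all genes, and 5 had an unadjusted p under 0.05, against 2.36% of tested genes with such a p and a lower level. Nsdhl, a sterol dehydrogenase of C4 demethylation, had 47.7 and 30.8 FPKM in the PROM1 libraries and 102.0 and 91.6 FPKM in the control libraries. Lss, the lanosterol synthase that uses the product of Sqle, had 9.56 and 10.7 FPKM in the PROM1 libraries and 18.5 and 19.6 FPKM in the control libraries. The log2 differences of the C4 methyl oxidase Msmo1 and the sterol reductase Tm7sf2 were -0.82 ± 0.24 and -0.77 ± 0.26 (SE), and that of Tm7sf2 was -0.45 without control library 1. Whether the ring enzymes differed from the earlier enzymes in size was not tested.

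The branches that leave the pathway at isopentenyl or farnesyl diphosphate showed no such shift. Of 17 listed genes of prenyl transfer, prenyl protein processing, dolichol, ubiquinone and heme A synthesis, 14 were tested, with 5 lower and 9 higher and a median log2 difference of 0.05. The groups did not overlap for 3 of them, 2 lower and 1 higher, against 17.5% and 16.5% of tested genes, and limma gave 0 calls over all genes and 0 unadjusted p under 0.05. Pdss2, a subunit of the enzyme that makes the ubiquinone side chain, had 2.75 and 4.12 FPKM in the PROM1 libraries and 4.10 and 11.8 FPKM in the control libraries, and its log2 difference of -0.89 was -0.22 without control library 2 and -1.55 without control library 1. Its partner Pdss1 had a log2 difference of 0.46 ± 0.35, the prenylcysteine methyltransferase Icmt of -0.44 ± 0.24 and the Rab prenylation subunit Rabggtb of 0.39 ± 0.95 (SE), the last turning to -0.24 without control library 1. Icmt was at -0.26 without PROM1 library 2 and at -1.39 when its transcript of highest mean alone was used. Ggps1, which extends farnesyl to geranylgeranyl diphosphate, was chosen after its values were seen. It had 4.57 and 4.36 FPKM in the PROM1 libraries and 2.46 and 6.28 FPKM in the control libraries, a log2 difference of 0.12 that was -0.41 without control library 1. The ratio of Fdps to Ggps1 was 6.60 and 7.01 in the PROM1 libraries and 21.2 and 13.1 in the control libraries.

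Upstream of the pathway, 7 of 9 genes of acetyl-CoA supply and ketone bodies were tested, with 6 lower, 1 higher and a median log2 difference of -0.40. The groups did not overlap for 4 of these 7, all lower, against 17.5% of tested genes, and limma gave 0 calls over all genes and 0 unadjusted p under 0.05. Slc25a1, the carrier that exports citrate from mitochondria for cytosolic acetyl-CoA, had 40.1 and 22.1 FPKM in the PROM1 libraries and 60.1 and 45.2 FPKM in the control libraries, and its log2 difference of -0.79 lay between -0.37, with PROM1 library 2 left out, and -1.20, with PROM1 library 1 left out. The log2 differences were -0.52 ± 0.27 for the ketone body dehydrogenase Bdh1, -0.41 ± 0.43 for the acetyl-CoA synthetase Acss2 and -0.40 ± 0.24 for the mitochondrial thiolase Acat1 (SE), and Acss2 turned to 0.19 without PROM1 library 2. Bdh1 was at -0.21 without PROM1 library 2 and at -0.83 without PROM1 library 1, and Acat1 was at -0.21 without control library 2.

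Among genes of sterol sensing and SREBP processing, 12 of 15 were tested, with 9 lower, 3 higher and a median log2 difference of -0.15. The groups did not overlap for 5 of the 12, 4 lower, against 17.5% of tested genes, and 1 higher, against 16.5%. Limma called 0 over all genes, and 2 had an unadjusted p under 0.05, both lower, against 2.36% of tested genes. Insig1, which holds the SREBP complex in the endoplasmic reticulum and is itself an SREBP target, had 5.69 and 4.96 FPKM in the PROM1 libraries and 15.6 and 11.8 FPKM in the control libraries, a log2 difference of -1.20 ± 0.25 (SE). Srebf2, which encodes the SREBP most tied to cholesterol synthesis, had 41.2 and 50.8 FPKM in the PROM1 libraries and 54.4 and 59.2 FPKM in the control libraries, a log2 difference of -0.30 ± 0.20 (SE) that was -0.16 without PROM1 library 1. The sterol carrier Stard4 was at -0.66 ± 0.33 (SE), and at -0.37 without control library 2 and 0.20 when its transcript of highest mean alone was used.

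**Figure D5:**
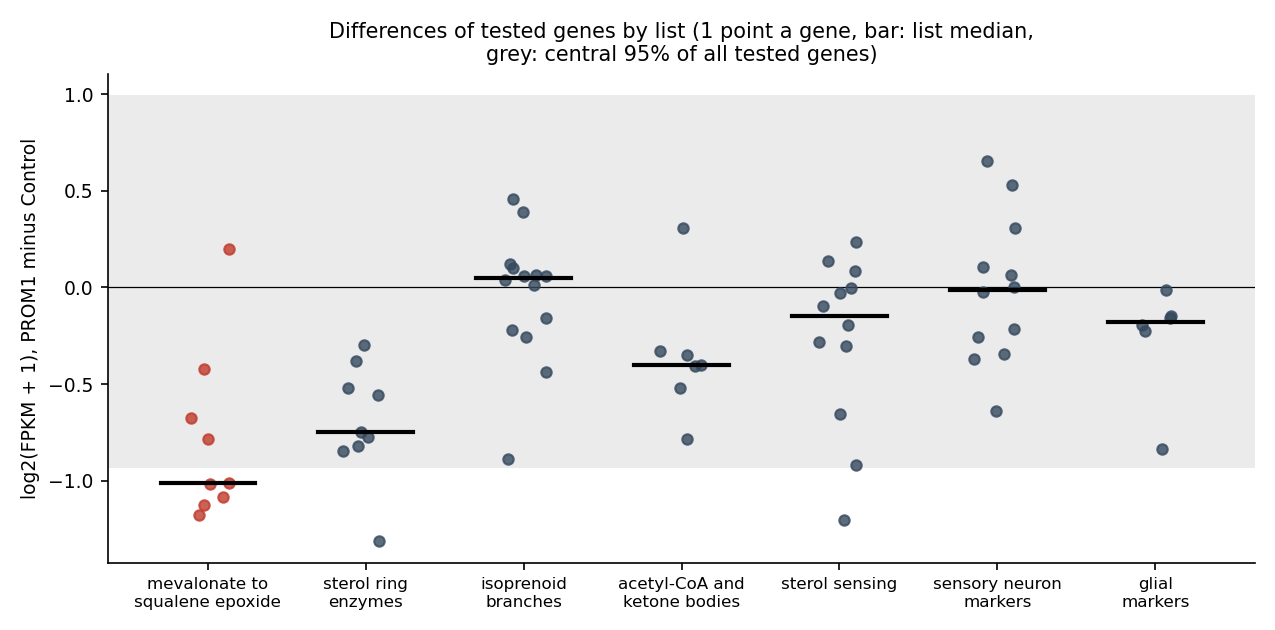
Difference on the log2(FPKM + 1) scale, PROM1 minus control, with 1 point for each tested gene, by list; black bars are list medians and the grey band is the central 95% of all tested genes. The median is -1.01 for the mevalonate to squalene epoxide enzymes and -0.75 for the ring enzymes, beside 0.05 for the isoprenoid branches and -0.01 for sensory neuron markers.

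The genes whose 4 library values lay nearest to the mean pattern of the 9 enzymes were sought among 6020 other tested genes averaging 5 FPKM or more, by the Euclidean distance between centred log2(FPKM + 1) values. The nearest 6 were Cby1, Lss, Pold4, Aldoc, Klf5 and Tprgl, at distances from 0.07 to 0.18, where the 9 enzymes themselves lay at distances from 0.13 for Mvk to 1.80 for Pmvk. The mean pattern included Pmvk. After Mvk the nearest enzyme was Idi1 at 0.35, so the 6 genes lie near the mean and not near each enzyme. Cby1, an antagonist of beta-catenin, had 4.04 and 4.44 FPKM in the PROM1 libraries and 7.13 and 8.34 FPKM in the control libraries. Of the 6, Lss alone is an enzyme of cholesterol synthesis.

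Markers of other cells were set beside these values. Of 13 markers of Schwann cells and satellite glia, 6 were in the table, and all 6 were tested. Each had a negative log2 difference, against 53.5% of tested genes, with a median of -0.18, and none was at 0 in any library. The groups did not overlap for 2 of the 6, both lower, against 17.5% of tested genes. Limma called 0 over all genes, and 1 had an unadjusted p under 0.05, lower, against 2.36% of tested genes. The other 7 of the 13 markers were not analysed here. The summed glial level was 50.7 and 58.3 FPKM in the PROM1 libraries and 83.4 and 71.4 FPKM in the control libraries. The myelin protein gene Pmp22, chosen after its values were seen, had 18.8 and 20.7 FPKM in the PROM1 libraries and 44.9 and 28.8 FPKM in the control libraries, and without control library 1 its log2 difference of -0.83 was -0.52. Pmp22 had the highest level of the 6 in every library, so it weighs most in the summed glial level. Of 9 fibroblast markers 4 were in the table. They summed to 7.94 and 10.02 FPKM in the PROM1 libraries and 3.01 and 4.72 FPKM in the control libraries. The 3 tested were all higher in PROM1 cultures, 2 of them without overlap between the groups, against 16.5% of tested genes. Of 7 macrophage markers 2 were in the table and summed to 1.79 and 1.99 FPKM in the PROM1 libraries and 3.80 and 3.51 FPKM in the control libraries, where Aif1 was at 0 in library 2. The endothelial and pericyte list had 1 of 6 markers in the table, Acta2, which had 3.43 and 1.51 FPKM in the PROM1 libraries and 3.63 and 3.83 FPKM in the control libraries. The list for dividing cells had 2 of 6, which summed to 10.2 and 14.0 FPKM in the PROM1 libraries and 6.43 and 11.8 FPKM in the control libraries. Fewer cells of a type and less RNA per cell cannot be told apart in these bulk libraries, and the part of these cells in the lower enzyme levels was not tested.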

How the data were processed

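RNA over 200 nt was taken and polyadenylated RNA was made into Lexogen SENSE libraries, read as single 50-base reads, per the labels' protocols. CASAVA, TopHat2 and build mm9 are named in the submitters' processing notes. The deposited FPKM values were computed per library with Cufflinks, per the file headers. The authors also deposited group FPKM values with p-values and q-values, a log2 ratio (of group values plus 0.1, within 1e-06 in all 14236 rows), a second log2 column and a −log10 p column, the last pair unused here. The sources used here name neither the tool of that comparison nor whether strand was used.

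Transcripts with a missing library value (39) were left out. FPKM was summed per symbol, taken from the description (13995 transcripts) or by accession from a RefSeq table of GRCm38.p6 (241). Genes averaging 1 FPKM or more were tested with limma 3.58.1 (R 4.3.3, variance trend) on log2(FPKM + 1), PROM1 minus control, adjusted by Benjamini-Hochberg over 10108 genes; this scale understates changes of low genes. The fit was tested on simulated data. The enzymes and lists were chosen with earlier results of these data known. Named genes are all 9 enzymes, up to 4 tested members of each pathway list with the largest absolute difference, and the 6 nearest genes; some genes so named are not reported here. Libraries summed to between 356985 and 384213 FPKM, and how many reads this represents is unknown. Alternatives covered the pseudocount, filters, scaling, the variance trend, 1 transcript a gene, the replicate number as a block, and leaving out each library.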

Additional observations from a re-analysis of the deposited data

How the results depend on the processing

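Across 12 alternatives, 8 or 9 of the enzymes had every remaining PROM1 library below every remaining control library, 0 passed limma over all genes, and the median log2 difference lay between -1.03 and -0.80, with the 4 fits that leave out a library between -0.99 and -0.80. Acat2, Hmgcs1, Mvk, Mvd, Idi1, Fdps, Fdft1 and Sqle stayed negative in all 13 of their alternatives, including the authors' deposited group values. Limma adjusted p over the alternatives of these 8 ran from 0.645 to 0.9997. Pmvk, at 0.20, turned to -0.83 without control library 1, -0.41 without PROM1 library 2, -1.81 with 1 transcript a gene and -0.49 in the authors' deposited group values, with up to 1.23 without control library 2. Rabggtb turned to -0.030 with a pseudocount of 0.1 and ranged from -0.24 to 1.71 when 1 library was left out. That range lacks the fit without PROM1 library 2, where Rabggtb fell below the filter on level. Ggps1 ranged from -0.41 to 0.66 when 1 library was left out and turned to -1.06 with 1 transcript a gene, Stard4 to 0.20 with 1 transcript a gene, and Acss2 ranged from -1.001 to 0.19 when 1 library was left out; the cause was not tested. With the replicate block, 0 of the 9 enzymes passed limma and the median was -1.01; the shared numbers are not shown to pair the cultures, and deviations of same-numbered libraries from their group means correlated at 0.139 across 10108 genes. Over all tested genes, limma called 2 lower and 0 higher, against 3 lower and 13 higher without PROM1 library 2, 7 lower and 0 higher without control library 2, 1 lower and 3 higher without PROM1 library 1, and 3 lower and 0 higher without control library 1 or with 1 transcript a gene. Without PROM1 library 1, PROM1 library 2, control library 1 and control library 2 in turn, 5, 7, 5 and 6 enzymes were lower with an unadjusted p under 0.05, against 4.75%, 1.49%, 3.48% and 0.878% of tested genes. Separation is easier to reach with 1 library in a group: in the same order, 8, 8, 9 and 8 enzymes were below, against 41.1%, 29.4%, 37.9% and 31.2% of tested genes. Leaving out a library leaves 1 sample in a group, which is then assumed to vary like the other group. The unknown depth limits what can be said of Pmvk, Idi1 and Mvd, the enzymes of lowest level.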
